A study of Sus scrofa with 11 samples.

Results

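FAM53B, PROB1 and EHBP1L1 are 3 genes among the 25322 listed for the pig longissimus lumborum, a muscle of the back, in a comparison of animals with many and with few slow muscle fibres. They were taken by symbol, and they had been picked because earlier results of these data showed them higher in the pigs with more type I fibres. Their difference between the groups is therefore given as a description, with no test, and tests are kept for measures that did not choose them. All 3 passed the filter on low counts, as did 11329 genes in all.

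The 11 pigs were females aged 23 weeks, and RNA came from the same part of the muscle as the histology. In the 7 pigs of the group named fibre1, type I fibres made up over 17% and type IIB fibres under 70%. In the 4 pigs of fibre2B, type I fibres made up under 8% and type IIB fibres over 70%. These bounds are all that the labels give, so no pig has a fibre percentage of its own, and no treatment, breed or genotype is named.

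Skeletal muscle is a mixture of fibre types. Type I fibres contract slowly, rely on mitochondria and use their own myosin and troponin genes, while type IIB fibres are fast and rely on glycolysis. Troponin is the calcium switch of the thin filament: TNNI1 encodes the slow form of its inhibitory subunit and TNNT1 the slow form of its tropomyosin-binding subunit, so both serve as RNA markers of slow fibres. FAM53B encodes a nuclear protein of the FAM53 family that helps beta-catenin, the effector of Wnt signalling, to enter the nucleus. EHBP1L1 binds the small GTPase Rab8 and works with the membrane-bending protein BIN1 and with dynamin in the transport of membrane vesicles. PROB1 encodes a proline-rich basic protein that is little characterised.

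Library depth lay between 14832736 counts (fibre2B pig 14) and 36374829 counts (fibre1 pig 12). Fibre1 pigs 5 and 6 stood apart in composition: their 10 most abundant nuclear genes held 45.2% and 44.1% of all counts, where no other pig was above 36.8%, and their normalisation factors were the lowest (0.718 and 0.779). Levels are given as CPM, counts scaled to library size by the trimmed mean of M-values (TMM). This scale compares 1 gene between pigs, not different genes with each other. Over all tested genes 1021 differed between the groups at an edgeR adjusted p under 0.05, or 9.01% (4.38% higher in fibre1 and 4.63% higher in fibre2B). Without fibre2B pig 14 that count was 0, with 2436 genes at an unadjusted p under 0.05, and without fibre1 pigs 5 and 6 it was 28. In bulk muscle, more fibres of a type and more RNA per fibre cannot be told apart.

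FAM53B (ENSSSCG00000010732), the gene of the beta-catenin partner, had its lowest fibre1 level at 19.6 CPM, its median at 35.9 and its highest at 69.0. In fibre2B pigs 10, 11, 14 and 16 it had 12.5, 9.58, 6.64 and 8.86 CPM. The groups did not overlap, and the lowest fibre1 pig stood 1.57 times above the highest fibre2B pig. The means were 42.6 ± 17.8 CPM (SD, n = 7) and 9.39 ± 2.41 CPM (SD, n = 4). The fitted log2 fold change was 2.18 ± 0.33 (SE), a fitted ratio of 4.53. The fibre1 pigs were spread more widely than the fibre2B pigs, with a coefficient of variation of 41.9% against 25.6%. Behind these levels lay 117 to 1412 counts a pig.

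PROB1 (ENSSSCG00000014347) was the most thinly counted of the genes, with 22 counts in fibre2B pig 14 and at most 301. Its fibre1 levels had a minimum of 3.68, a median of 6.77 and a maximum of 14.7 CPM. Its fibre2B levels were 2.48, 2.38, 1.25 and 1.72 CPM in pigs 10, 11, 14 and 16. Again no fibre2B pig reached a fibre1 pig, although the gap was the narrowest of the 3 genes, at 1.49 times. The means were 8.09 ± 3.90 (SD, n = 7) and 1.96 ± 0.58 CPM (SD, n = 4). The fitted log2 fold change was 2.04 ± 0.37 (SE), a fitted ratio of 4.10. Within fibre1 the highest pig had 4.0 times the level of the lowest, the widest range of the 3.

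EHBP1L1 (ENSSSCG00000012988), the gene of the Rab8 effector, differed less but was the tightest within groups. Fibre1 ran from 112 CPM through a median of 184 to 226 CPM. Fibre2B pigs 10, 11, 14 and 16 had 56, 64.0, 55.3 and 45.0 CPM, and the lowest fibre1 pig lay 1.74 times above the highest of them, the clearest gap of the 3. The means were 170 ± 46.4 (SD, n = 7) and 55.1 ± 7.81 CPM (SD, n = 4). The fitted log2 fold change was 1.62 ± 0.22 (SE), a fitted ratio of 3.08. Coefficients of variation were 27.4% and 14.2%, and each pig had 863 to 4985 counts.

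**Figure D1:**
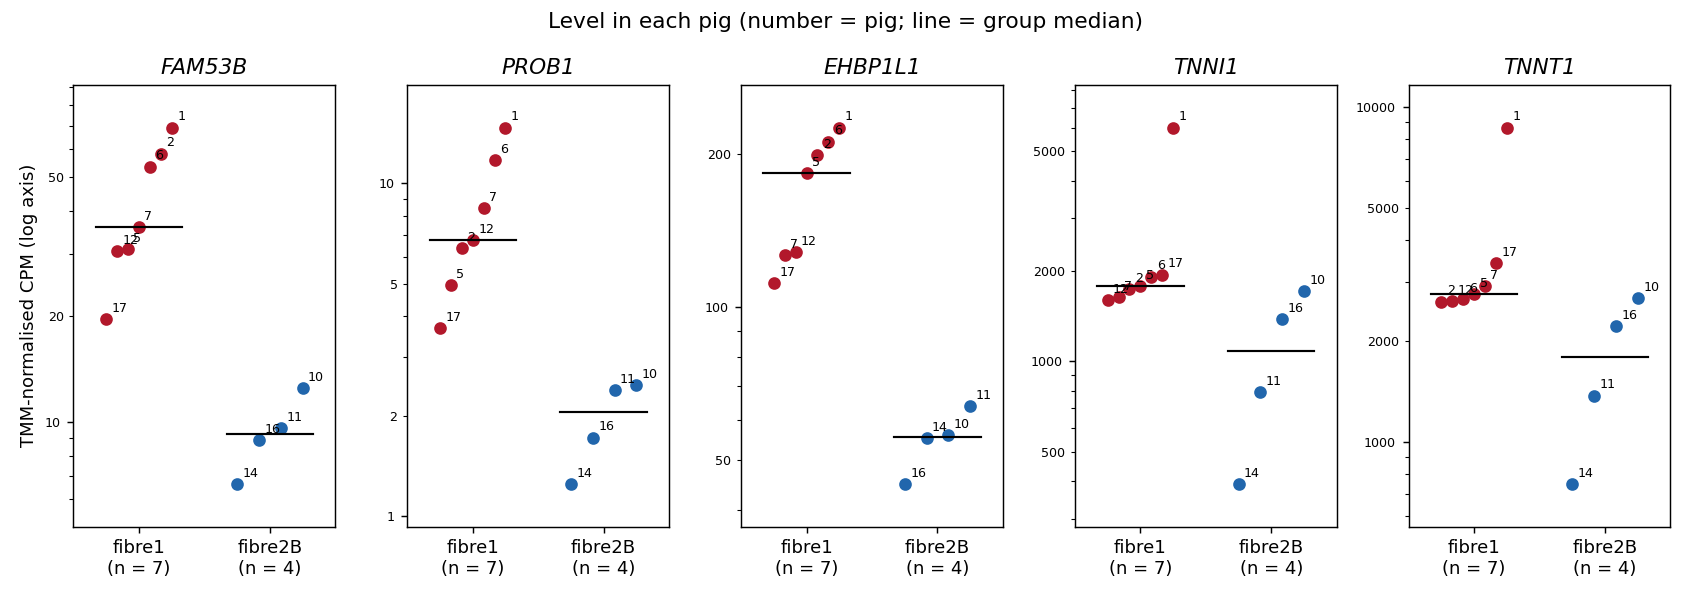
TMM-normalised CPM (log axis) of FAM53B, PROB1, EHBP1L1 and the slow troponin genes TNNI1 and TNNT1 in each pig, with pig numbers beside the points and a line at each group's median. In the first 3 panels the 7 fibre1 pigs lie above all 4 fibre2B pigs, while in the troponin panels fibre2B pig 10 lies among the fibre1 pigs and fibre1 pig 1 lies far above the rest.

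Complete separation of this kind, every fibre1 pig above every fibre2B pig, was found in 3.40% of tested genes (385), and since the 3 genes were picked by this contrast nothing is read from their count. The ranks that follow come from the same contrast, so nothing is read from them either. Their pool was the 360 genes called higher in fibre1, named, and with a fibre1 mean of 5 CPM or more. PROB1 met that cut through its fibre1 mean of 8.09 CPM, against 1.96 CPM in fibre2B. By fold, FAM53B had rank 2 in this pool, PROB1 rank 3 and EHBP1L1 rank 6. Above them stood the ID listed as MYH6, a myosin heavy chain gene. Its identity is uncertain, because the table of symbols names no ID as MYH7, the closely related slow-fibre gene, whose reads it may hold. Between PROB1 and EHBP1L1 were HSPA1L, a heat shock gene, and NES, which encodes the intermediate filament nestin. The gene after EHBP1L1 was KIF1C, a kinesin motor gene, with a log2 fold change of 1.58.

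The order of pigs within fibre1 was partly shared. Pig 1 had the highest and pig 17 the lowest level of all 3 genes. Pig 6 was second for PROB1 and EHBP1L1 and the third for FAM53B, and pig 2 was second for FAM53B with 58.2 CPM but rank 5 for PROB1 with 6.38 CPM. In fibre2B, pig 14 had the lowest FAM53B and PROB1, and pig 16 the lowest EHBP1L1.

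The folds stayed of similar size when single pigs were left out. FAM53B then ranged from 2.02 to 2.35 on the log2 scale, PROB1 from 1.83 to 2.17 and EHBP1L1 from 1.54 to 1.71. Without fibre1 pigs 5 and 6, the libraries dominated by a few genes, the values were 2.19, 2.02 and 1.53. With each pig's load of abundant genes (the share held by the top 10) as a covariate they were 2.22, 2.09 and 1.57.

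**Figure D2:**
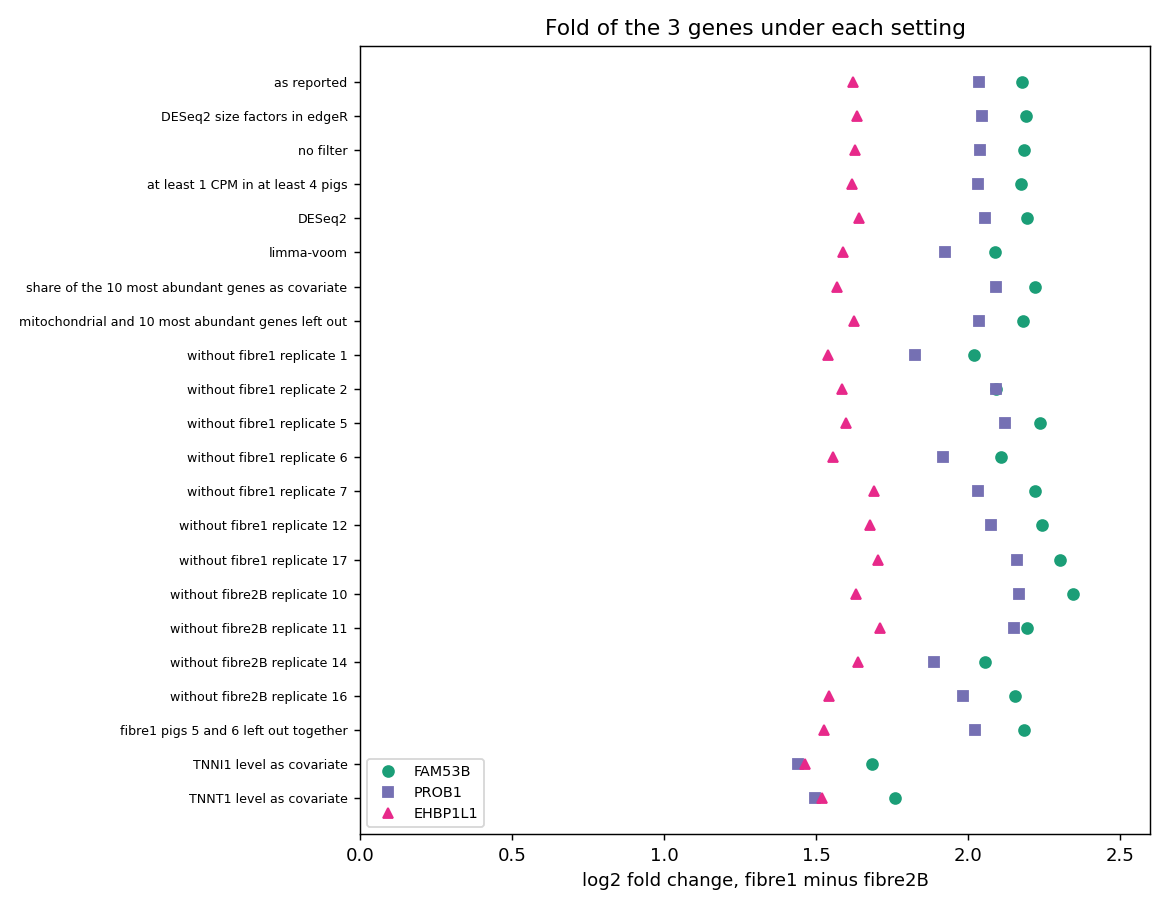
Log2 fold change (fibre1 minus fibre2B) of FAM53B, PROB1 and EHBP1L1 under each setting, 1 row per setting and 1 marker per gene. All values are above 1.4, and those furthest to the left are the fits that hold the TNNI1 or TNNT1 level as a covariate.

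The slow troponin genes, known markers of type I fibres, separated the groups less well. Unlike FAM53B, PROB1 and EHBP1L1 they were not picked by this contrast, so nothing is read from that difference. TNNI1 (ENSSSCG00000024061) had a minimum of 1598, a median of 1786 and a maximum of 5998 CPM in fibre1, and 1717, 789, 391 and 1383 CPM in fibre2B pigs 10, 11, 14 and 16. TNNT1 (ENSSSCG00000025353) had 2623, 2762 and 8674 CPM at the same points of fibre1, and 2688, 1374, 749 and 2218 CPM in those fibre2B pigs. Above every fibre2B pig stood 5 of the 7 fibre1 pigs for TNNI1 and 4 for TNNT1. The log2 fold changes were 1.15 ± 0.45 for TNNI1 (edgeR adjusted p = 0.112) and 1.06 ± 0.41 for TNNT1 (edgeR adjusted p = 0.107), so neither passed that test. With DESeq2 TNNT1 did (adjusted p = 0.032).

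Fibre2B pig 10 had TNNI1 and TNNT1 levels inside the range of fibre1, while its FAM53B, PROB1 and EHBP1L1 levels lay below every fibre1 pig. The choice of the 3 genes by the group contrast favours such a pattern. Within fibre2B, pig 10 had the highest FAM53B and PROB1 levels, as it had for the troponin genes. Fibre1 pig 17 had 1944 CPM of TNNI1 and 3408 CPM of TNNT1, each the second highest of fibre1, and the lowest level of the 3 genes. In fibre1 pig 1 all of them were at their highest.

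Within fibre1, where the group difference plays no part, each gene was correlated with each slow troponin on log2(CPM + 1). With TNNI1, Pearson's r was 0.542 for FAM53B, 0.623 for PROB1 and 0.519 for EHBP1L1 (n = 7, two-sided exact permutation p = 0.230, 0.150 and 0.168). Adjusted over the 9 relations computed these p-values were 0.325, 0.303 and 0.303. Spearman's rho was lower, at 0.286, 0.143 and 0.393 (exact p = 0.556, 0.783 and 0.396, adjusted 1.0, 1.0 and 0.890). No relation with TNNI1 passed the threshold.

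With TNNT1, r was 0.416 for FAM53B, 0.541 for PROB1 and 0.355 for EHBP1L1 (n = 7, exact permutation p = 0.353, 0.253 and 0.554, adjusted 0.397, 0.325 and 0.554). Spearman's rho was 0.00, 0.179 and -0.0714 (exact p = 1.0, 0.713 and 0.906, each adjusted to 1.0). The ranks of the pigs for the 3 genes thus carried little of their ranks for TNNT1, and no relation passed.

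These positive values of r rest on fibre1 pig 1. Without it, r with TNNI1 was -0.119 for FAM53B, -0.182 for PROB1 and 0.240 for EHBP1L1. With TNNT1 it was -0.778, -0.607 and -0.686, so all 3 turned negative (exact permutation, adjusted p = 0.21, 0.42 and 0.21). Leaving out the pigs farthest from the median of the troponin, pigs 1 and 12 for TNNI1, gave -0.295, -0.204 and 0.0449 over n = 5. For TNNT1, without pigs 1 and 17, it gave -0.393, 0.0564 and -0.446. Without pigs 5 and 6 instead, r with TNNI1 was 0.586, 0.730 and 0.683, and with TNNT1 0.497, 0.703 and 0.590.

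**Figure D3:**
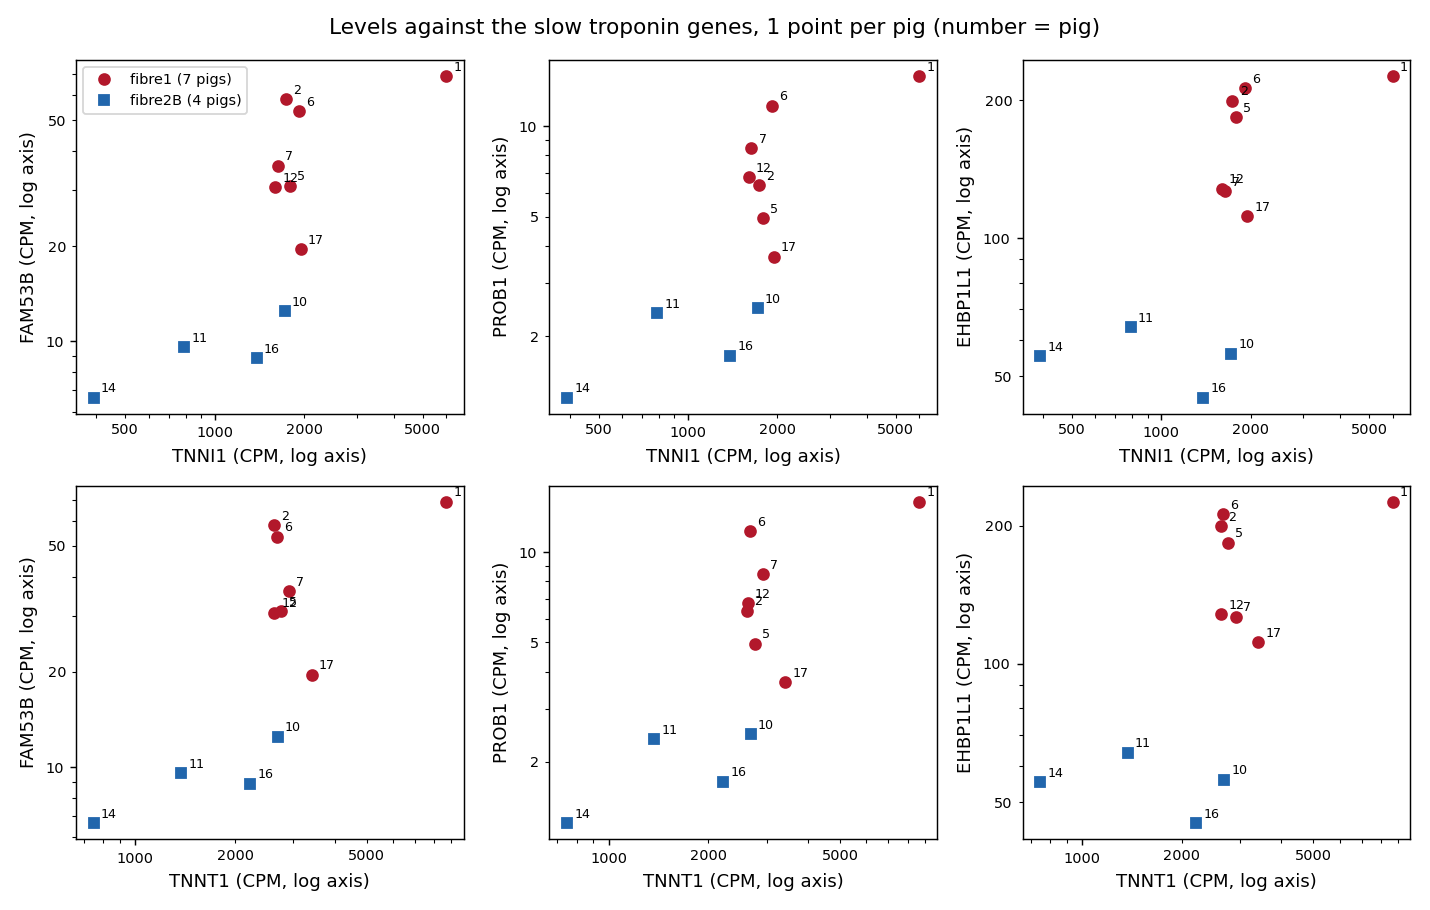
CPM of FAM53B, PROB1 and EHBP1L1 (columns) against CPM of TNNI1 (top) and TNNT1 (bottom), log axes, 1 point per pig with its number; circles are fibre1 and squares fibre2B. Fibre1 pigs other than pig 1 form a near-vertical column, spread widely in the 3 genes over a narrow range of troponin, and fibre2B pigs lie low over a range of troponin that reaches this column.

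The 4 fibre2B pigs are too few for a correlation and are given as values. Pig 14 had the lowest TNNI1 and TNNT1 and the lowest FAM53B and PROB1, and pig 10 the highest of all 4. EHBP1L1 did not share this order: its highest pig was 11, with 789 CPM of TNNI1, and its lowest was 16, with 1383 CPM. When all 11 pigs were pooled with each value set relative to its group mean, r with TNNI1 was 0.577 for FAM53B, 0.576 for PROB1 and 0.266 for EHBP1L1 (permutation within groups, p = 0.0476, 0.0478 and 0.483, adjusted 0.108, 0.108 and 0.543). With TNNT1 it was 0.496, 0.528 and 0.168 (adjusted permutation p = 0.144, 0.144 and 0.691).

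The troponin level was also placed beside the group in the edgeR fit over all genes, an alternative chosen after seeing the data. The slope on TNNI1 was 0.41 ± 0.17 for FAM53B, 0.48 ± 0.19 for PROB1 and 0.12 ± 0.13 for EHBP1L1 (SE, log2 per log2; edgeR adjusted p = 0.470, 0.439 and 0.852). Slopes on TNNT1 were 0.40 ± 0.19, 0.49 ± 0.21 and 0.0895 ± 0.15 (edgeR adjusted p = 0.556, 0.502 and 0.903). None of the 6 slopes passed, in a fit where 15 genes (0.132%) were called for TNNI1, with 1056 at an unadjusted p under 0.05, and 18 (0.159%) for TNNT1, with 1070. Without fibre1 pig 1 the TNNI1 slopes were 0.34, 0.31 and -0.0468 and the TNNT1 slopes 0.24, 0.23 and -0.17. None of these passed either, where 2 genes (0.0178%) were called for TNNI1, with 777 at an unadjusted p under 0.05, and 3 (0.0267%) for TNNT1, with 740.

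At equal TNNI1 the group difference was 1.68 ± 0.35 for FAM53B, 1.44 ± 0.39 for PROB1 and 1.46 ± 0.28 for EHBP1L1 (log2, SE). At equal TNNT1 it was 1.76 ± 0.36, 1.5 ± 0.40 and 1.52 ± 0.28. With all pigs these are lower than the folds without the covariate, most for PROB1 and least for EHBP1L1, and all remained above 1.4. Without fibre1 pig 1 the EHBP1L1 fold was 1.54 with no covariate, 1.59 at equal TNNI1 and 1.68 at equal TNNT1, so it was not lowered. In the same order FAM53B had 2.02, 1.73 and 1.85, and PROB1 had 1.83, 1.56 and 1.66, still lower with the covariate. The genes were picked by the group contrast, which favours a remaining difference, so nothing is read from it.

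The 3 genes were also correlated with one another. Within fibre1, r was 0.868 between FAM53B and EHBP1L1 (n = 7, exact permutation p = 0.0181, adjusted 0.117) and 0.829 between FAM53B and PROB1 (exact p = 0.0260, adjusted 0.117). Between PROB1 and EHBP1L1 it was 0.630 (exact p = 0.144, adjusted 0.303). Spearman's rho was 0.857, 0.714 and 0.679 for these pairs (exact p = 0.0238, 0.0881 and 0.110, adjusted 0.214, 0.329 and 0.329). No pair passed after adjustment in these 7 pigs. With 1 pig left out, FAM53B and PROB1 passed without pig 2 (r = 0.970, adjusted exact permutation p = 0.025), and FAM53B and EHBP1L1 passed without pig 7 (r = 0.909, adjusted exact permutation p = 0.0375).

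The link between FAM53B and EHBP1L1 did not depend on pig 1, without which r was 0.821. Without pigs 17 and 7, the farthest from the median of EHBP1L1, it was 0.811, and without pigs 5 and 6 it was 0.958. For FAM53B and PROB1, r fell to 0.479 without pigs 1 and 17, and so rested partly on these pigs. For PROB1 and EHBP1L1 it was 0.552 without pigs 17 and 7 and 0.704 without pigs 5 and 6, where PROB1 with TNNI1 had 0.730. The difference between any of these correlations was not tested. With all 11 pigs set relative to their group means, r was 0.839 for FAM53B and PROB1 (permutation p = 0.00543, adjusted 0.0489), 0.782 for FAM53B and EHBP1L1 (p = 0.0200, adjusted 0.0900) and 0.608 for PROB1 and EHBP1L1 (p = 0.110, adjusted 0.144).

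Among 7766 genes with a symbol compared on that same scale, other genes lay closer to the 3 than they lay to each other. The nearest to FAM53B were DENND4B, a regulator of Rab GTPases (r = 0.893, n = 11), TADA2B, a subunit of histone acetylase complexes (0.884), and TAF8, a general transcription factor subunit (0.868). They were followed by PBX2, a homeobox gene (0.868), and MBD3, a subunit of a chromatin remodelling complex (0.865). PROB1 stood at rank 17 of this list, EHBP1L1 at 44, TNNI1 at 415 and TNNT1 at 706. The pigs share depth and composition across genes, so these values describe likeness only.

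The nearest to PROB1 were TADA2B (r = 0.945), ADD1, which encodes a cytoskeletal adducin (0.936), KHSRP, an RNA-binding protein gene (0.923), and EIF4ENIF1 and ZNF212 (both 0.922). FAM53B held rank 49, EHBP1L1 438, TNNI1 532 and TNNT1 701. The nearest to EHBP1L1 were AP1B1, a subunit of a clathrin adaptor (0.935), TRIM26 (0.917), ACAA1, a peroxisomal thiolase (0.910), ATAD3A (0.886) and PPEF1 (0.883). For EHBP1L1 the troponins ranked far down, with TNNI1 at 2135 and TNNT1 at 2728. Of the 14 different genes in these lists, 8 were called higher in fibre1 and 0 higher in fibre2B, beside 4.38% and 4.63% of all tested genes. DENND4B had the largest of these differences, at 29.4 ± 7.89 (SD, n = 7) against 12.4 ± 1.98 CPM (SD, n = 4), log2 1.24 ± 0.22 (SE; edgeR adjusted p = 0.016). PPEF1 went the other way without passing, at -0.52 ± 0.21 (edgeR adjusted p = 0.123). All 8 calls were lost without fibre2B pig 14 (edgeR adjusted p = 0.057 to 0.152). Without fibre1 pigs 5 and 6 all but that of MBD3 were lost (0.0502 to 0.125). Over 11 fits with 1 pig left out, the call stayed in 2 for KHSRP, 3 for ATAD3A, and 4 each for TADA2B and ZNF212. It stayed in 8 each for ADD1 and AP1B1, and in 10 each for DENND4B and MBD3. Without a filter, or with each pig's abundant-gene load as a covariate, KHSRP, ATAD3A, TADA2B and ZNF212 did not pass (edgeR adjusted p = 0.051 to 0.080). With limma-voom KHSRP, ATAD3A and TADA2B did not pass.

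Of the members, only EHBP1L1 had counts on more than 1 isoform of the deposited estimates. All counts of FAM53B lay on 1 isoform (ENSSSCT00000011744), and so did those of PROB1 (ENSSSCT00000015675). RefSeq, on another build, lists 6 transcripts for FAM53B, 1 for PROB1 and 13 for EHBP1L1. The number of isoforms seen here can therefore depend on the annotation used for counting. Whether FAM53B used other transcripts was not tested. EHBP1L1 had 2 isoforms, ENSSSCT00000014198 and ENSSSCT00000026324. In fibre1 the former took 14.6% of the EHBP1L1 counts in pig 5, 31.7% in pig 17, 34.3% in pig 6, 43.5% in pig 2, 83.8% in pig 1, 91.2% in pig 12 and 96.9% in pig 7. In fibre2B pigs 10, 11, 14 and 16 it took 90.9%, 28.7%, 84.4% and 50.2%. The split thus ran from mostly one isoform to mostly the other within both groups.

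The mean share of ENSSSCT00000014198 was 56.6 ± 33.2% over the fibre1 pigs (SD, n = 7) and 63.5 ± 29.3% over the fibre2B pigs (SD, n = 4). The difference of -6.98 percentage points did not pass an exact two-sided permutation test (p = 0.694 over 330 splits), a test chosen after seeing the data. Isoform usage over 663 genes gave EHBP1L1 an adjusted p of 1.0 (edgeR's diffSpliceDGE), where 8 genes were called (1.21%). On simulated data the usage test recovered 52.7% of 4-fold isoform changes, so a difference in usage could be missed. The spread of the share inside the groups, an SD of 31.9 points, was rank 10 among 187 genes with 2 isoforms and at least 100 counts in every pig, whose median was 7.39 points.

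Neither EHBP1L1 isoform separated the groups by itself, although their sum did. ENSSSCT00000014198 spanned 26.9 to 187 CPM in fibre1 against 18.1 to 50.9 CPM in fibre2B, with 5 of 7 fibre1 pigs above every fibre2B pig. ENSSSCT00000026324 spanned 3.91 to 158 CPM against 5.09 to 45.1 CPM, with 4 of 7 above. Their log2 fold changes were 1.42 ± 0.51 and 1.92 ± 0.91 (SE), with wider errors than that of the gene. The split is an estimate from reads of 50 bases from 1 end, and the link from isoform to gene was inferred from the values.

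**Figure D4:**
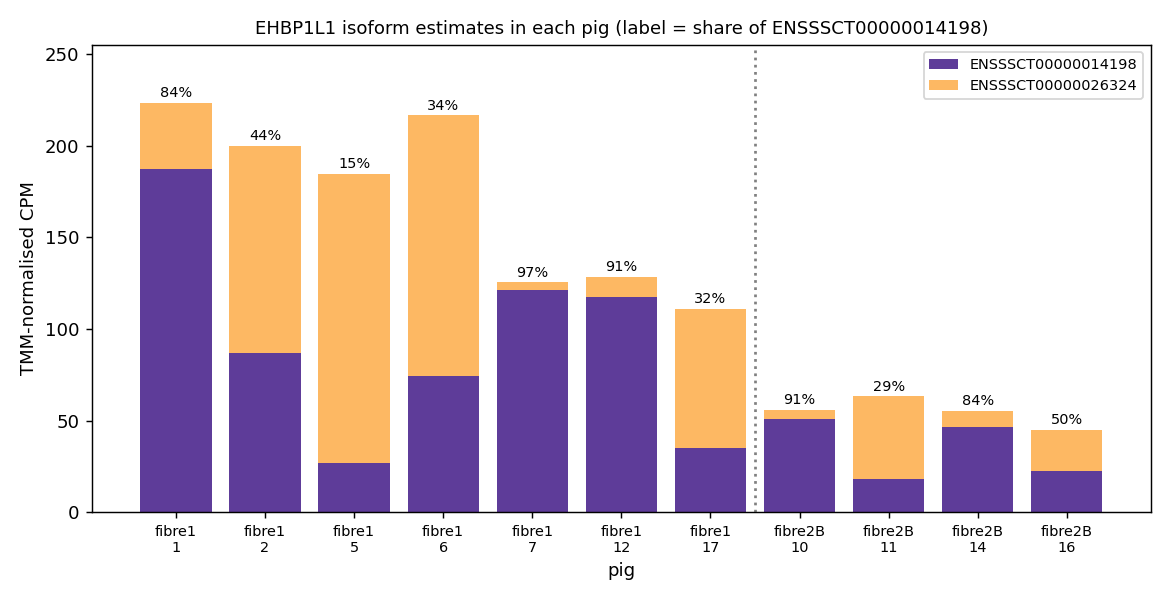
Stacked TMM-normalised CPM of the EHBP1L1 isoforms ENSSSCT00000014198 (purple) and ENSSSCT00000026324 (orange) in each pig, with the share of ENSSSCT00000014198 above each bar and a dotted line between the groups. Bar heights are lower in every fibre2B pig, while the share ranges from 15% to 97% in fibre1 and from 29% to 91% in fibre2B.

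The genes around FAM53B's role were described from a list of the FAM53 family and Wnt/beta-catenin signalling, of which 30 of 44 were tested. The list was chosen with earlier results of these data known, so its counts are a description only. Of these 30, 6 passed as higher in fibre1 and 0 as higher in fibre2B, beside a background of 4.38% and 4.63%. The median log2 fold change was 0.31, against 0.01 for all tested genes, and 21 members were positive, where 50.7% of all tested genes were. The relative FAM53C, at 0.39 ± 0.44, did not pass (edgeR adjusted p = 0.590), and CTNNB1, the beta-catenin gene itself, had -0.34 ± 0.11 (edgeR adjusted p = 0.067), which passed with DESeq2 (adjusted p = 0.0080) and without fibre1 pig 7 (edgeR adjusted p = 0.048).

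The 6 genes sit at several levels of the pathway. At the receptor, LRP5, a Wnt co-receptor gene, had 8.58 ± 1.74 (SD, n = 7) against 4.87 ± 1.42 CPM (SD, n = 4), log2 0.81 ± 0.21 (SE; edgeR adjusted p = 0.034). DVL1 and DVL2, whose dishevelled proteins carry the signal inward, had log2 fold changes of 1.02 ± 0.27 and 0.84 ± 0.22 (edgeR adjusted p = 0.039 and 0.036). In the complex that marks beta-catenin for breakdown, the scaffold gene AXIN1 had 15.4 ± 3.82 against 7.68 ± 1.89 CPM, log2 1.0 ± 0.22, and the kinase gene GSK3A 0.62 ± 0.17 (edgeR adjusted p = 0.022 and 0.043). BCL9L, a coactivator of beta-catenin, showed 1.24 ± 0.31 (edgeR adjusted p = 0.033). The genes called thus include parts known to pass the signal on and parts known to restrain it.

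These calls were sensitive to single libraries. All 6 were lost without fibre2B pig 14 (edgeR adjusted p = 0.084 to 0.135), without pig 16 (0.052 to 0.102) and without fibre1 pigs 5 and 6 together (0.064 to 0.109). AXIN1 otherwise lost its call only without fibre2B pig 10 (0.062). BCL9L, LRP5, DVL2 and GSK3A were also lost without fibre2B pig 10 or fibre1 pigs 1, 5 or 6, and LRP5, DVL2 and GSK3A without fibre1 pig 2. DVL1 was also lost without fibre1 pigs 1, 2 or 6 or fibre2B pig 11, and GSK3A without fibre1 pig 7 (all 0.0505 to 0.0798). With the abundant-gene covariate BCL9L, LRP5, DVL2 and GSK3A did not pass (0.052 to 0.075), nor DVL2 and GSK3A with limma-voom (0.058 and 0.053), nor GSK3A without a filter (0.055).

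For EHBP1L1's role the list held Rab8 and Rab10 with their effectors, EHD proteins, BIN1 and dynamins, with 24 of 35 tested. It too was chosen with earlier results of these data known. Of these 24 genes 2 passed as higher in fibre1 and 1 as higher in fibre2B, beside 4.38% and 4.63% of all tested genes. The median log2 fold change was 0.20, against 0.01 for all tested genes, and 18 were positive, where 50.7% of all tested genes were. PACSIN3, which encodes a membrane-curving F-BAR protein, had 298 ± 68.6 (SD, n = 7) against 147 ± 21.2 CPM (SD, n = 4), log2 1.02 ± 0.19 (SE; edgeR adjusted p = 0.016). BIN1, the partner of EHBP1L1 that also shapes the T-tubules of muscle, had 1437 ± 424 against 806 ± 134 CPM, log2 0.84 ± 0.22 (edgeR adjusted p = 0.039). RAB8B, a small GTPase that directs vesicle transport, was lower in fibre1, at 10.9 ± 2.59 against 18.2 ± 2.66 CPM, log2 -0.74 ± 0.18 (edgeR adjusted p = 0.029).

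Its close relatives and other partners did not pass. EHBP1, the paralogue of EHBP1L1, had a log2 fold change of 0.15 ± 0.16, RAB8A -0.23 ± 0.15 and RAB10 0.21 ± 0.16 (edgeR adjusted p = 0.566, 0.320 and 0.416). DNM2, the dynamin gene expressed in many tissues, had 0.54 ± 0.18 (edgeR adjusted p = 0.074, and 0.034 with DESeq2). PACSIN3 lost its call only without fibre2B pig 14 (edgeR adjusted p = 0.057) or without fibre1 pigs 5 and 6 together (0.0502). BIN1 lost it without any 1 of the fibre2B pigs or fibre1 pigs 2, 5 or 6 (0.063 to 0.127). RAB8B lost it without fibre1 pigs 1, 2, 5 or 6 or fibre2B pigs 10, 14 or 16 (0.0502 to 0.107), and with the abundant-gene covariate (0.062).

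**Figure D5:**
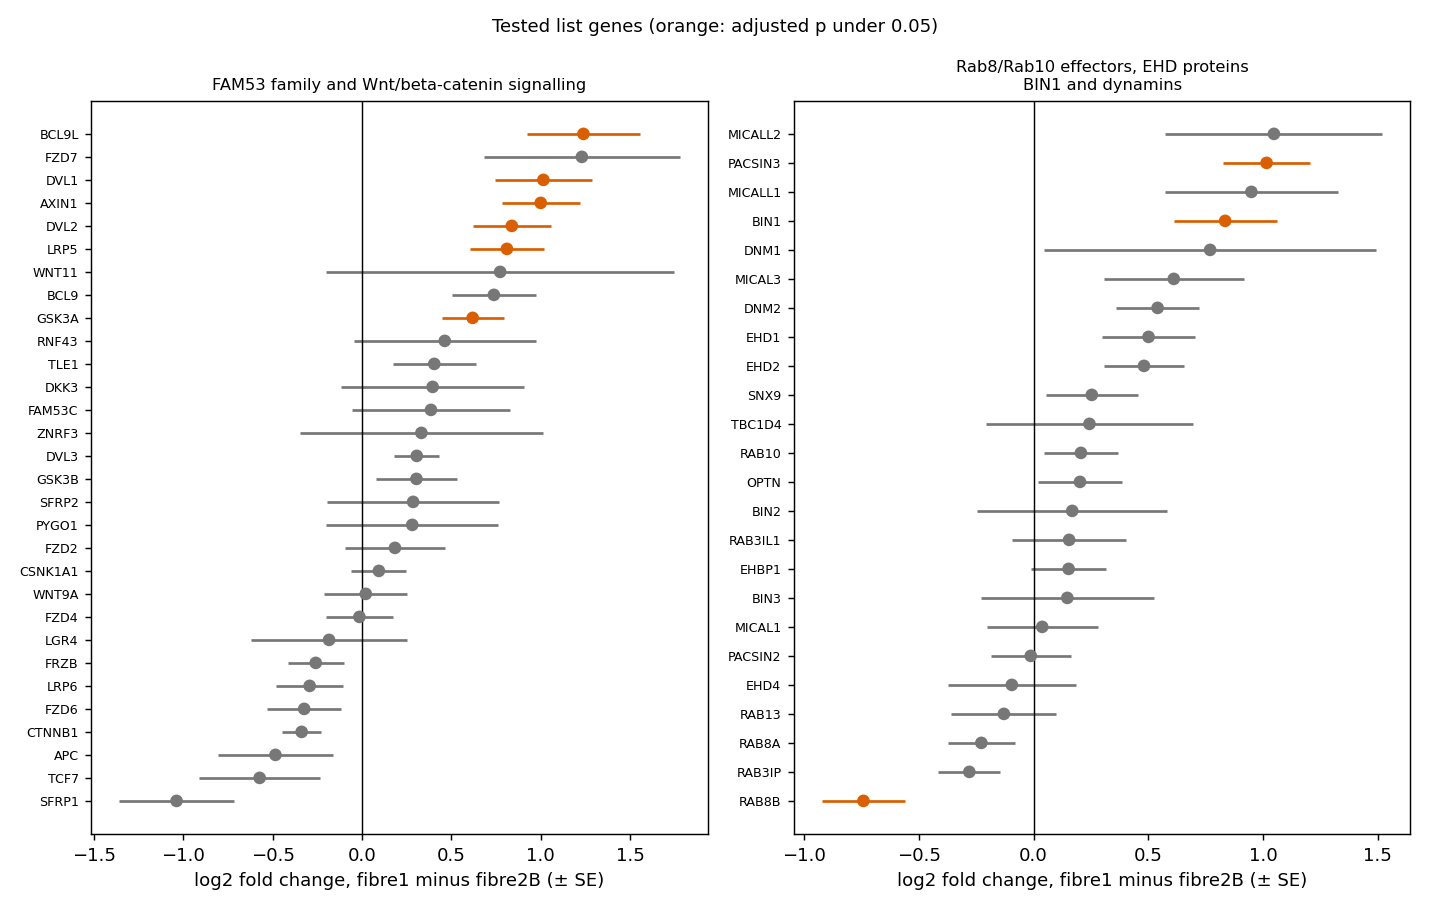
Log2 fold change (fibre1 minus fibre2B, bars ± SE) of the tested genes of the FAM53 and Wnt/beta-catenin list (left) and of the Rab8, EHD, BIN1 and dynamin list (right); orange marks an edgeR adjusted p under 0.05. On the left 6 genes are orange, all to the right of 0, and on the right BIN1 and PACSIN3 lie above 0 and RAB8B below it.

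Contractile genes give the setting for these folds. Over all tested genes 50.7% had a positive fold and 4.38% were called higher in fibre1. All 8 tested genes of the slow-fibre list were positive, with a median log2 fold change of 1.0, and of them 1, the ID listed as MYH6, passed as higher in fibre1 (2.29 ± 0.59, SE; edgeR adjusted p = 0.034; lost without fibre1 pigs 2, 5 or 6 or any 1 fibre2B pig, 0.0507 to 0.10). With DESeq2 2 slow-fibre genes passed, 1 of them TNNT1. The fast-fibre list also held 16 genes, of which 9 were tested. The fast myosin genes MYH1, MYH2 and MYH4 were not among these, so the list covers the fast genes only in part. Of the 9 tested fast-fibre genes 8 were also positive, with a median of 0.38, and 0 passed. Of these, MYBPC2, a fast myosin-binding protein gene, had 0.82 ± 0.33, ATP2A1, the fast calcium pump gene, 0.75 ± 0.34 and CASQ1, the fast calsequestrin gene, 0.45 ± 0.24 (edgeR adjusted p = 0.119, 0.165 and 0.217). With each pig's abundant-gene load as a covariate these folds fell to 0.40, 0.45 and 0.26.

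Markers of other cell types in the muscle were also measured, beside an all-gene share of 4.63% called higher in fibre2B. The 5 of 11 skeletal muscle markers with an ID, defining for the labelled tissue, summed to 81300 to 172000 CPM in fibre1 and 61700 to 92700 CPM in fibre2B, and 0 of them passed. No marker of any list with an ID was at 0 in every pig. Each sum below covers every marker of its list with an ID, while the counts are of tested markers, which can be fewer. Higher in fibre2B were 2 of 6 fibroblast and matrix markers (summed 475 to 986 against 749 to 1450 CPM) and 1 of 2 red blood cell markers (137 to 467 against 422 to 953 CPM). Also higher there were 1 of 7 smooth muscle and pericyte markers (129 to 226 against 141 to 181 CPM) and 1 of 4 satellite cell markers (31.7 to 56.9 against 40.7 to 70.4 CPM). Of 5 endothelial (62.5 to 128 against 73.2 to 115 CPM), 5 immune (4.33 to 13.9 against 9.53 to 20.4 CPM), 3 adipocyte (3.32 to 8.53 against 2.77 to 6.82 CPM) and 1 nerve marker (0.0443 to 1.74 against 0.0567 to 2.08 CPM) 0 passed. Their part in the levels of FAM53B, PROB1 and EHBP1L1 was not tested.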

How the data were processed

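The authors deposited expected counts, estimated reads per gene and isoform without decimals and not normalized, with 1 column per pig. The submitters' processing notes name RSEM, STAR, DESeq2, edgeR, FastQC and CASAVA 1.8.2 without roles or order, and the build Sscrofa10.2. Libraries were TruSeq preparations of 300 ng RNA read as 50 single-end cycles in 5 technical repetitions, per the labels' protocols and the design text. How repetitions were joined and which strand was counted are not given in the sources used here. The tables held 0 columns of samples from outside the series.

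Expected counts, whole already, were tested as rounded counts with edgeR 4.0.16 in R 4.3.3 (TMM factors, filterByExpr, quasi-likelihood F test, Benjamini-Hochberg over 11329 genes, threshold 0.05). SE is the size of the log2 fold change over the square root of F. The biological coefficient of variation was 29.8%. Isoforms (12212 tested) were joined to genes where a run of rows summed to the gene in every pig, short by at most 7 counts, which worked for 12526 of 12623 genes with at least 50 counts. Symbols came from a gene ID table that names 11804 rows. Gene order came from RefSeq, Sscrofa11.1. Correlations used log2(CPM + 1) with exact tests over 5040 permutations within fibre1, or 100000 within groups.

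Members and lists were chosen with earlier results of these data known. Named were the 3 genes and their isoforms, TNNI1, TNNT1, the MYH6 ID, called members of both pathway lists with those of smallest p up to 4, the 3 of smallest p of the slow and fast lists, the nearest tested neighbours up to 2 a side, and the 5 most similar genes. Of the neighbours, 1 is not reported here. FAM53C, CTNNB1, EHBP1, RAB8A and RAB10 were added after their values were seen. Alternatives were other size factors, filters, DESeq2 1.42.0, voom of limma 3.58.1, covariates, pseudocounts and pigs left out. Scripts were tested on simulated data.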

Additional observations from a re-analysis of the deposited data

Results flagged for a closer look

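Fibre1 pig 1 stood apart from the other 6 fibre1 pigs in the slow-fibre genes, each time by a gap to the next pig of more than the critical share of the group's range. It had 5998 CPM of TNNI1, 8674 CPM of TNNT1 and 16410 CPM of the ID listed as MYH6. In all 16 groups were tested, of which chance picks out about 1 in 20. These tests are not independent, since the EHBP1L1 isoform shares mirror each other and the slow-fibre genes all peaked in pig 1. No level of FAM53B, PROB1 or EHBP1L1 and no EHBP1L1 isoform share stood apart in this way. Pig 1 was the highest fibre1 pig for all 3 genes.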

How the results depend on the processing

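The log2 fold changes of FAM53B, PROB1 and EHBP1L1 moved by less than the spread between pigs in every alternative except PROB1 with a troponin covariate (1.44 with TNNI1 and 1.5 with TNNT1). Genes called numbered 1752 with DESeq2 (902 higher in fibre1, 850 higher in fibre2B), 460 with each pig's abundant-gene load as a covariate (257 and 203) and 28 without fibre1 pigs 5 and 6 (18 and 10). Leaving out 1 pig gave 0 to 1548 (0 to 803 and 0 to 745). Wnt genes higher in fibre1 numbered 2 with that covariate, 0 without pigs 5 and 6, and 0 to 6 with 1 pig left out, and those higher in fibre2B 2 with DESeq2, 1 with limma-voom and 0 to 2. Rab8 genes higher in fibre1 numbered 4 with DESeq2, 0 without pigs 5 and 6 and 0 to 4, and those higher in fibre2B 0 with the covariate, 0 without pigs 5 and 6 and 0 to 1. Slow-fibre genes higher in fibre1 numbered 2 with DESeq2, 0 without pigs 5 and 6 and 0 to 1, and fast-fibre genes 0 to 1. The cause was not tested.

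With 1 fibre1 pig left out, r with TNNI1 ranged from -0.119 to 0.680 for FAM53B, from -0.182 to 0.735 for PROB1 and from 0.240 to 0.611 for EHBP1L1. With TNNT1 it ranged from -0.778 to 0.602, from -0.607 to 0.722 and from -0.686 to 0.492. Between members it was 0.709 to 0.970 (FAM53B with PROB1), 0.788 to 0.950 (FAM53B with EHBP1L1) and 0.418 to 0.756. FAM53B with EHBP1L1 passed without TMM factors (r = 0.963, adjusted exact permutation p = 0.0107), and FAM53B with PROB1 over 11 pigs centred on group means (r = 0.839, adjusted permutation p = 0.0489). Isoform folds ranged from 1.16 to 1.67 and from 1.58 to 2.68, and the usage p from 0.860 to 1.0. Among neighbours with folds near 0, MZB1 (-0.0164 with limma-voom and -0.0575 to 0.116 with 1 pig left out), SPATA24 (-0.0512 with the covariate, -0.0356 without pigs 5 and 6, and -0.0420 to 0.136) and ABRAXAS2 (-0.130 to 0.0799) changed sign.

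No paired analysis was possible because no replicate number occurs in both groups. At 22 counts in the shallowest pig, PROB1 has the least precise level.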

Other observations

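The genes next to FAM53B, PROB1 and EHBP1L1 in the RefSeq order of Sscrofa11.1, another build, were also read. Of the 12 neighbours tested, 1 was called higher in fibre1 and 0 higher in fibre2B, beside 4.38% and 4.63% of all tested genes. That gene was ZRANB1, a deubiquitinase gene beside FAM53B, whose fibre1 level was 22.3 ± 2.17 CPM (SD, n = 7) and whose fibre2B level was 14.7 ± 1.39 CPM (SD, n = 4), log2 0.60 ± 0.13 (SE; edgeR adjusted p = 0.019). The call was lost without fibre2B pig 14 (edgeR adjusted p = 0.073) and without fibre1 pigs 5 and 6 (0.060). On the FAM53B side LHPP, a phosphatase gene, had 0.68 ± 0.30, OAT, the ornithine aminotransferase gene, 0.33 ± 0.19 and ABRAXAS2 -0.0506 (edgeR adjusted p = 0.157, 0.282 and 0.842).

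Around PROB1 the log2 fold changes were 0.0400 for MZB1, -1.10 for SLC23A1, a vitamin C transporter gene, 0.0176 for SPATA24 and -0.25 for DNAJC18 (edgeR adjusted p = 0.945, 0.078, 0.952 and 0.609). Around EHBP1L1 they were 0.32 for PCNX3, 1.02 for SIPA1, a Rap GTPase-activating protein gene, and 0.51 for LTBP3, which binds latent TGF-beta (edgeR adjusted p = 0.191, 0.076 and 0.134). SIPA1 passed with DESeq2 (adjusted p = 0.043). In that RefSeq order FAM53B overlaps EEF1AKMT2, which had no tested ID here. Whether reads were counted by strand is not given in the sources used here, so reads of the overlap cannot be told apart.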
